A study of Mus musculus with 24 samples.

Results

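SOX10 sites without TFAP2A were taken as the distinct peaks of the mutant SOX10 list made with antibody U that overlapped no mutant TFAP2A peak by even 1 bp. They were chosen by these 2 sets of peak calls, which are measured values, and numbered 3279 of 6358 SOX10 U peaks, or 51.6% (95% interval 50.3 to 52.8%), and the other 3079 peaks, which overlapped TFAP2A, serve as their comparison. The data were CUT&RUN peak lists from 2 mouse melanoma cell lines. In CUT&RUN a nuclease brought to a protein by its antibody cuts out the DNA beneath it. The lines were the Kmt2d mutant line 493 (12 lists) and the Kmt2d WT line 971 (10 lists). Both lines were grown in the same serum medium, and the sources used here name neither the Kmt2d allele, the origin of the lines nor whether each is a clone. With 1 library for every line and target, no test between groups was possible, and line and genotype cannot be told apart. SOX10 and TFAP2B lists are used here from the mutant line only, and the KMT2D list from the WT line only. Intervals are Wilson 95% intervals, differences carry Newcombe 95% intervals, and both cover counting error only, since neighbouring sites are not replicates.

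SOX10 is a transcription factor of the neural crest, melanocytes and Schwann cells, and binds short sequences around the core ACAAAG or ACAATG. TFAP2A is a second neural crest and melanocyte factor, which binds variants of GCCNNNGGC, and both factors are known to bind enhancers of melanocyte genes. ARID1A is a subunit of the SWI/SNF chromatin remodelling complex BAF. UTX, an H3K27 demethylase, and KMT2D, an H3K4 methyltransferase, sit in one complex that acts mainly at enhancers, while Menin and H3K4me3 mark active promoters. In the mutant line 2 H3K4me3 peaks, with fold enrichments of up to 8.37, lay in or within 1 kb of Sox10, and no WT H3K4me3 peak did. Of 25 pigment cell genes, 13 in the mutant line and 11 in the WT line had H3K4me3 within 1 kb of a gene end, close to the shares over all protein-coding genes (53.8% in the mutant line and 49.3% in the WT line), so the pigment genes as a list did not stand apart. The counts in the mutant and WT lines were 14 and 8 of 25 for Schwann cell and myelin genes, 21 and 21 of 23 for mesenchymal state genes, 4 and 4 of 10 for fibroblast markers, 3 and 1 of 9 for keratinocyte markers and 1 and 1 of 7 for endothelial markers. The pigment enzyme genes Tyr, Tyrp1 and Dct and the melanosome gene Mlana had no such peak in either line, while Mitf and Pmel had one in both.

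Few of the sites lay at listed gene starts, and for those the sequence can be shown. A promoter window (250 bases before to 50 after a start, RefSeq, GRCm38.p6) overlapped 111 of the 3279 sites, and 42 of these windows (37.8%, 29.4 to 47.1%) held a SOX core, ACAAAG or ACAATG on either strand. The share was 25.7% (21.8 to 30.02%) of 432 windows at sites with TFAP2A and 28.6% of all 32851 promoter windows, or, when all windows were weighted to the GC content of the windows at the sites, 29.2% for sites without TFAP2A and 20.8% for sites with TFAP2A. The share was thus above that of all windows of like GC content at sites of both kinds, though for sites without TFAP2A the interval began close to it. By core and without weighting, ACAAAG was in 30.6% of windows without TFAP2A, 16.4% with TFAP2A and 18.7% of all windows. ACAATG was in 13.5%, 11.1% and 12.6% of them. Of the windows with a core, 16 had one within 50 bp of the SOX10 summit. GCCNNNGGC, which reads the same on both strands, was in 4 of the 111 windows (3.60%, 1.41 to 8.90%), in 115 of the 432 at sites with TFAP2A (26.6%, 22.7 to 31.0%) and in 16.6% of all windows. At matched GC content, the shares over all windows were 14.4% for sites without TFAP2A and 22.9% for sites with it. A SOX core and GCCNNNGGC can share at most 1 base. A match is a stretch of letters, not a measured binding site.

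The windows below are the pair with the highest SOX10 fold enrichment, Mtmr2 and Tmprss5, the window of Gjc3, whose site was one of a tied pair highest at gene ends, and that of Sox6, which held 3 cores. They are printed 5′ to 3′ on the strand of the gene, with SOX cores of either strand in capitals, and the choice was made after the values were seen.
Mtmr2, chr9:13765704-13766003, plus strand: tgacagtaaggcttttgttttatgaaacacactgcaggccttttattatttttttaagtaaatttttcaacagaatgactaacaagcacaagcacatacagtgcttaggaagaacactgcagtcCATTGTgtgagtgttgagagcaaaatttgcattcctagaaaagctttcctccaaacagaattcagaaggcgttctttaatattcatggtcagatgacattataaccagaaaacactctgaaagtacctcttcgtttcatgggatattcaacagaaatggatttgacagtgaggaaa
Tmprss5, chr9:49102478-49102777, plus strand: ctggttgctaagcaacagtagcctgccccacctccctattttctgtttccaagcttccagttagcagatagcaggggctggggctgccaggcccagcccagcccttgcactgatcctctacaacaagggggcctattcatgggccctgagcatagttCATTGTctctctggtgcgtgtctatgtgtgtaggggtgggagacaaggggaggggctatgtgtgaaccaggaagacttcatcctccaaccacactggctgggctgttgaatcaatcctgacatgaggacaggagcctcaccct
Gjc3, chr5:137963049-137963348, minus strand: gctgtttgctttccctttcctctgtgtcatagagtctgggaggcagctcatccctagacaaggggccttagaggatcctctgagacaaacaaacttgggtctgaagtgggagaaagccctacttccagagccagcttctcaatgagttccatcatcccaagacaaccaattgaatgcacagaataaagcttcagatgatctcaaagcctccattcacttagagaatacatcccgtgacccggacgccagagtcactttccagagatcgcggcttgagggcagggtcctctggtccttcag
Sox6, chr7:115824661-115824960, minus strand: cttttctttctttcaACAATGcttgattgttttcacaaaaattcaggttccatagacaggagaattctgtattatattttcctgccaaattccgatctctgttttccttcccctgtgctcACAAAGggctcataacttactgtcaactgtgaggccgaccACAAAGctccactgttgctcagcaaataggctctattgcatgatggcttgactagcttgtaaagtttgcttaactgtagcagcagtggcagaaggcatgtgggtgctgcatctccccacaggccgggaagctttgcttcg
Mtmr2, which encodes a phosphoinositide phosphatase, carried a SOX10 site with a fold enrichment of 25.4 over a start inside the gene, and its single core lay 105.5 bp from the summit. At Tmprss5, a membrane serine protease gene, the fold enrichment was 17.2 and the core lay 71.5 bp from the summit. Both sites also had mutant ARID1A, UTX and SOX10 T peaks and no WT peak of any target. Gjc3, which encodes connexin 29 of myelinating glia, had no core in the window although its site covered the whole of it, and Sox6, a SoxD gene, had one 45.5 bp from the summit under a peak of 7.47-fold enrichment. None of the 4 windows held GCCNNNGGC.

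The sites were somewhat weaker than SOX10 sites with TFAP2A, and most stood far from any TFAP2A peak. The authors' fold enrichment over background, compared here only within a list, had a median of 6.35 (quartiles 5.10 and 9.07) without TFAP2A and of 7.25 (5.44 and 9.97) with it. The median −log10 q was 6.85 without and 8.57 with TFAP2A, and the median width 225 bp without and 262 bp with TFAP2A. Among the 100 highest SOX10 peaks, 26 lacked TFAP2A, and 406 of the highest 1000 did (40.6%, 37.6 to 43.7%). The median gap to the nearest mutant TFAP2A peak was 31479 bp, and 1266 sites (38.6%) were at least 50000 bp away. At the other end, 59 sites (1.80%) lay within 100 bp of a TFAP2A peak. Just inside the rule were sites near Gsn (a gap of 0 bp, the peaks abutting), Sppl2b, Rfx3 and Arid1a (1 bp each) and Cavin1 (3 bp). Just outside were SOX10 peaks near Limch1 and Syne1 (an overlap of 1 bp each), Cers6 (2 bp), Tspan12 (4 bp) and Sh3d21 (5 bp). Fold enrichment was 10.9 at Sppl2b and at most 7.65 at the other 4 inside the rule, against 22.3 at Limch1 and at most 7.25 at the other 4 outside it. These values chose the members and are a description.

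The second SOX10 antibody, T, gave a short list of 1163 peaks, of which 973 (83.7%, 81.4 to 85.7%) overlapped an antibody U peak. It covered 320 sites without TFAP2A (9.76%, 8.79 to 10.8%) and 655 sites with TFAP2A (21.3%, 19.9 to 22.8%), against 15.3% of all SOX10 U peaks. Sites without TFAP2A that antibody T also called had a median antibody U fold enrichment of 12.6, against 6.35 for the 2959 it did not call. When the 100 highest sites of each kind were taken apart, it called 68 of the 100 without TFAP2A and 88 of the 100 with TFAP2A. These sets were not of equal strength, with a lowest fold enrichment of 17.2 without and 22.2 with TFAP2A. Over the SOX10 U peaks that antibody T also called, the differences between sites without and with TFAP2A described next were -16.0 points for mutant ARID1A and -15.5 points for mutant UTX, smaller than over all SOX10 U peaks.

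In the mutant line, SOX10 sites without TFAP2A carried ARID1A and UTX more often than any other target, but each of the 10 other targets was less frequent there than at sites with TFAP2A. ARID1A lay on 1939 sites without TFAP2A (59.1%, 57.4 to 60.8%) and on 2812 sites with TFAP2A (91.3%, 90.3 to 92.3%), a difference of -32.2 points (-34.1 to -30.2), against 74.7% over all SOX10 U peaks. UTX lay on 1491 sites without TFAP2A (45.5%, 43.8 to 47.2%) and on 2369 with it (76.9%, 75.4 to 78.4%), a difference of -31.5 points (-33.7 to -29.2), against 60.7% of all SOX10 U peaks. The SWI/SNF core subunit SMARCC1, called at low depth in this line, was on 6.92% without TFAP2A and 18.6% with TFAP2A (12.6% of all SOX10 U peaks).

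The promoter marks were scarce. H3K4me3 overlapped 271 sites without TFAP2A (8.26%, 7.37 to 9.26%) and 769 with TFAP2A (24.98%, 23.5 to 26.5%), against 16.4% of all SOX10 U peaks, and Menin overlapped 435 (13.3%) and 992 (32.2%) of them, against 22.4% of all SOX10 U peaks. TFAP2B, the paralogue of TFAP2A, lay on 53 sites without TFAP2A (1.62%, 1.24 to 2.11%) and on 1665 sites with TFAP2A (54.1%, 52.3 to 55.8%), against 27% of all SOX10 U peaks. The sites without TFAP2A took up 0.611% of the TFAP2B list, and sites with TFAP2A 19.1% of it. ARID2 (20 sites), PBRM1 (6) and BRD9 (6), subunits of PBAF and of non-canonical BAF, had short lists and covered at most 0.610% of the sites without TFAP2A and at most 2.83% of those with TFAP2A, against 1.68%, 0.708% and 0.346% of all SOX10 U peaks.

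**Figure D1:**
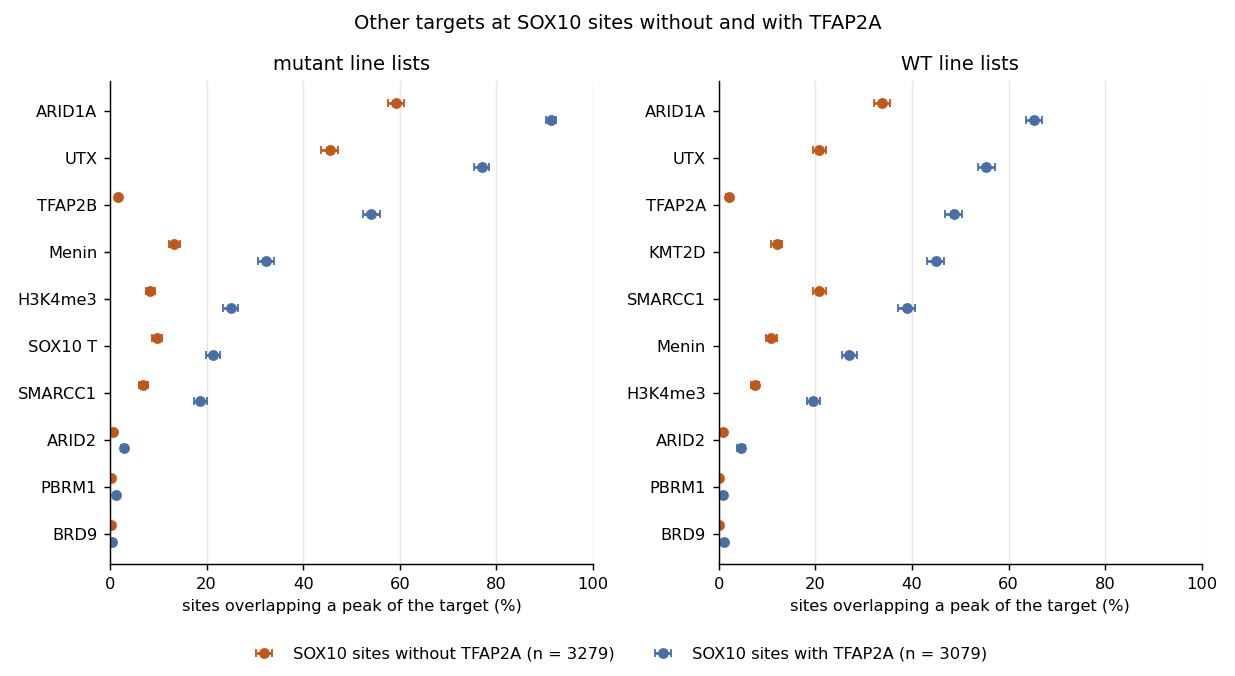
Share of SOX10 sites (x axis, %) that overlapped a peak of each other target (y axis) in the mutant lists (left) and the WT lists (right), with orange points for sites without TFAP2A, blue points for sites with TFAP2A and bars for Wilson 95% intervals. Each target plotted lay at a smaller share of the sites without TFAP2A, mutant ARID1A for example at 59.1% without and 91.3% with TFAP2A.

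Combinations of ARID1A and UTX divided the sites into 4 groups. Both were present at 1203 sites without TFAP2A (36.7%, 35.1 to 38.4%) and at 2288 with TFAP2A (74.3%, 72.7 to 75.8%). ARID1A alone of the pair lay at 736 sites without TFAP2A (22.4%) and UTX alone at 288 (8.78%), against 17.0% and 2.63% with TFAP2A. Neither was called at 1052 sites without TFAP2A (32.1%, 30.5 to 33.7%) and at 186 with TFAP2A (6.04%, 5.25 to 6.94%). At 905 sites without TFAP2A (27.6%, 26.1 to 29.2%) none of the 10 other mutant lists had a peak, and at 857 (26.1%) no other list of either line did, against 104 (3.38%) and 97 (3.15%) with TFAP2A. Median fold enrichment was 7.25 where ARID1A and UTX were both present, 6.35 with ARID1A alone, 5.72 with neither and 5.95 where SOX10 U was the sole mutant peak. When all SOX10 U peaks were split into 10 equal classes of fold enrichment, the differences from sites with TFAP2A were present in each class for UTX and ARID1A of both lines and for KMT2D. In the highest class, for example, mutant ARID1A covered 77.5% of 240 sites without TFAP2A and 96.0% of 396 with TFAP2A.

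In the WT line, most coordinates of sites without TFAP2A had no peak, and each target was less frequent than at sites with TFAP2A. SOX10 binding in the WT line was not analysed here, so the WT lists show only which other targets were called there. KMT2D lay at 393 sites without TFAP2A (11.99%, 10.9 to 13.1%) and at 1383 sites with TFAP2A (44.9%, 43.2 to 46.7%), a difference of -32.9 points (-35.0 to -30.8), against 27.9% of all SOX10 U peaks. WT UTX lay at 682 (20.8%, 19.4 to 22.2%) and 1705 (55.4%, 53.6 to 57.1%), a difference of -34.6 points (-36.8 to -32.3), against 37.5% of all SOX10 U peaks. WT ARID1A was at 33.8% without and 65.3% with TFAP2A (49% of all SOX10 U peaks), and WT SMARCC1 at 20.8% without and 38.9% with TFAP2A (29.6% of all SOX10 U peaks). WT TFAP2A overlapped 67 sites without mutant TFAP2A (2.04%, 1.61 to 2.59%) and 1499 sites with it (48.7%, 46.9 to 50.5%), against 24.6% of all SOX10 U peaks, so sites without mutant TFAP2A mostly lacked it in the WT line too. WT H3K4me3 lay at 7.44% without and 19.6% with TFAP2A (13.3% of all SOX10 U peaks), and WT Menin at 10.9% without and 27.0% with TFAP2A (18.7% of all SOX10 U peaks). WT ARID2, PBRM1 and BRD9 covered at most 0.915% of the sites without TFAP2A, against 2.67%, 0.503% and 0.582% of all SOX10 U peaks. No WT list had a peak at 1919 sites without TFAP2A (58.5%, 56.8 to 60.2%) and at 743 with TFAP2A (24.1%, 22.7 to 25.7%).

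For UTX, ARID1A, Menin and SMARCC1, a target called at these sites in the mutant line was called less often in the WT line than at sites with TFAP2A. Of 1491 sites without TFAP2A that carried mutant UTX, 553 (37.1%, 34.7 to 39.6%) had WT UTX, against 66.1% (64.2 to 68.0%) of sites with TFAP2A and 54.6% of all 9707 mutant UTX peaks. For ARID1A the share was 53.9% (51.7 to 56.1%) of 1939 sites without TFAP2A, 70.8% (69.1 to 72.5%) of sites with TFAP2A and 62.5% of all mutant ARID1A peaks. Menin was also called in the WT line at 56.3% (51.6 to 60.9%) of the 435 Menin sites without TFAP2A, 68.6% of those with TFAP2A and 62.7% of all mutant Menin peaks. H3K4me3 did not show this order, and for SMARCC1 both shares stood above that of all mutant SMARCC1 peaks. For SMARCC1 the share was 74.9% (68.9 to 80.1%) without TFAP2A, 83.4% (80.2 to 86.3%) with TFAP2A and 67.3% of all mutant SMARCC1 peaks. For H3K4me3 it was 73.4% (67.9 to 78.3%) without TFAP2A, 71.0% (67.7 to 74.1%) with TFAP2A and 79.8% of all mutant H3K4me3 peaks. The mutant libraries were called at 1.59 to 2.36 times the depth of the WT libraries, apart from SMARCC1 at 0.392 times, and the part of depth in the missing WT peaks was not tested.

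Stronger SOX10 peaks had mutant UTX more often, but did not have WT UTX more often. Mutant UTX covered 26.6% of sites without TFAP2A in the lowest of the 10 classes (22.4 to 31.3%) and 72.9% in the highest (67.0 to 78.1%). WT UTX covered 22.04% in the lowest class (18.1 to 26.5%) and 15.8% in the highest (11.8 to 21.0%), with intervals that overlap. Sites with no WT peak of any target made up 45.7% of the lowest class (40.7 to 50.8%) and 66.2% of the highest (60.1 to 71.9%). For sites with TFAP2A the same shares were 60.2% and 91.2% for mutant UTX, 54.9% and 40.4% for WT UTX, and 15.5% and 42.4% for sites with no WT peak. Of the 100 highest sites without TFAP2A, 79 had mutant UTX, 84 mutant ARID1A, 11 WT UTX and 3 KMT2D, and 69 had no WT peak. Of the 100 highest with TFAP2A, 97 had mutant UTX, 100 mutant ARID1A, 41 WT UTX and 32 KMT2D, and 45 had no WT peak. The lowest SOX10 fold enrichment of the 100 was 17.2 without and 22.2 with TFAP2A, so the sets were not of equal strength. The ranking used mutant SOX10 fold enrichment alone, and the trends are descriptions.

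**Figure D2:**
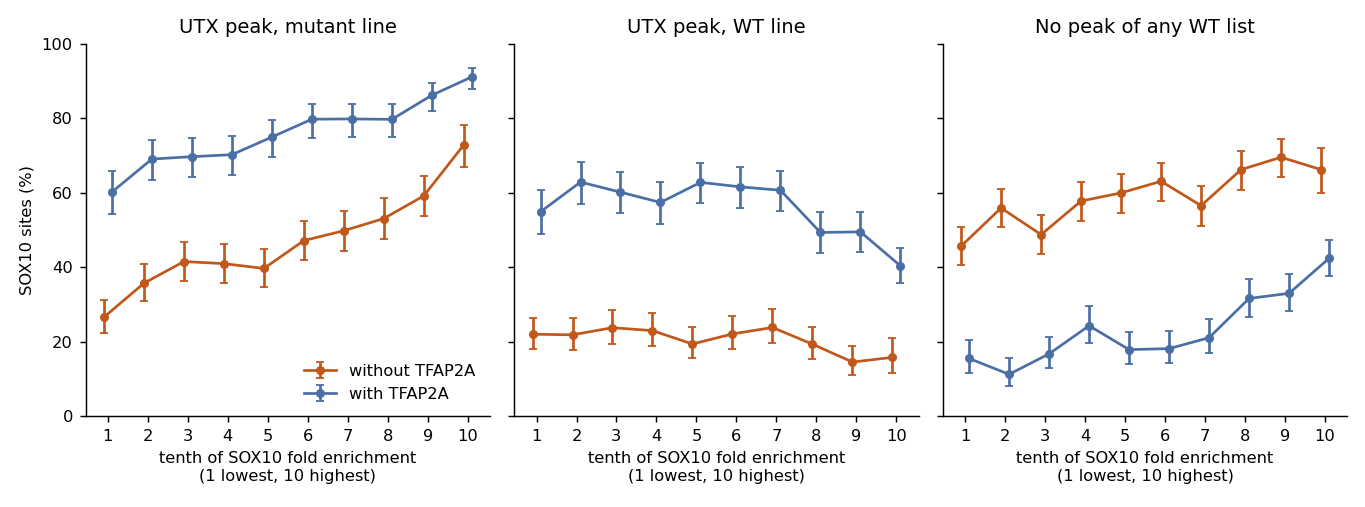
Share of SOX10 sites (y axis, %) with a mutant UTX peak (left), with a WT UTX peak (middle) and with no peak of any WT list (right), by class of SOX10 U fold enrichment (x axis, 10 equal classes, 1 lowest), for sites without TFAP2A (orange) and with TFAP2A (blue), with Wilson 95% intervals. Mutant UTX climbs to 72.9% of sites without TFAP2A in the highest class, while WT UTX stands at 15.8% there.

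The sites lay mainly far from gene ends. Only 178 (5.43%, 4.70 to 6.26%) were within 1 kb of either end of a protein-coding gene, against 537 sites with TFAP2A (17.4%, 16.1 to 18.8%), a difference of -12.01 points (-13.6 to -10.5), and 11.2% of all SOX10 U peaks. Sites beyond 5 kb from any gene end made up 86.1% without TFAP2A (84.8 to 87.2%) and 70.7% with TFAP2A (69.1 to 72.3%), a difference of 15.4 points (13.4 to 17.4). They split into 1463 inside genes (44.6%) and 1359 between genes (41.4%), against 37.6% and 33.1% with TFAP2A. The median distance from the summit to the nearest gene end was 36449 bp without TFAP2A and 18440 bp with it. Distances over 100 kb were found for 819 sites without TFAP2A (24.98%) and 418 with TFAP2A (13.6%). The median distance from one site to the next on a chromosome was 297 kb, and 174 pairs of neighbours started within 10 kb of each other. Whether the sites were clustered or scattered was not tested, since this spacing was not set beside that of any other regions.

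**Figure D3:**
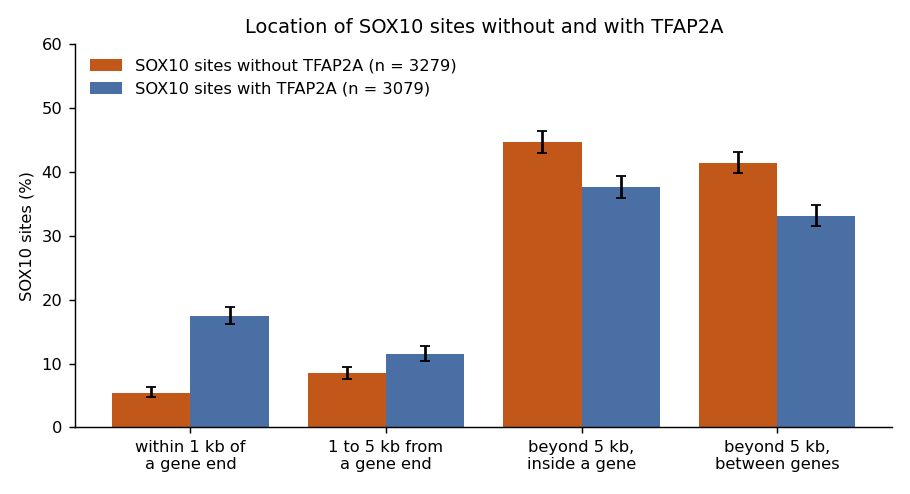
Share of SOX10 sites (y axis, %) in 4 classes of distance to protein-coding genes (x axis), with orange bars for sites without TFAP2A, blue bars for sites with TFAP2A and error bars for Wilson 95% intervals. Gene-end sites make up 5.43% of sites without TFAP2A and 17.4% of sites with TFAP2A.

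The differences for KMT2D and for ARID1A and UTX of both lines were also present within each class of location. They were not seen for every target. Mutant SMARCC1 at gene ends covered 4.49% without TFAP2A (2.29 to 8.62%) and 5.03% with TFAP2A (3.48 to 7.22%). For WT H3K4me3 the intervals overlapped at gene ends and at 1 to 5 kb. Among sites between genes and beyond 5 kb, mutant ARID1A covered 59.8% without TFAP2A (57.2 to 62.4%) and 91.5% with TFAP2A (89.6 to 93.0%), and KMT2D 11.3% without and 39.2% with TFAP2A. Among sites beyond 5 kb inside genes, ARID1A covered 59.9% without and 91.5% with TFAP2A, nearly the same as between genes. In points, the promoter marks differed less away from gene ends, where few sites carried them. Beyond 5 kb, sites without and with TFAP2A differed by -5.66 points for mutant H3K4me3 and -4.09 for WT H3K4me3. The differences there were -9.42 points for mutant Menin and -7.69 for WT Menin. Mutant H3K4me3 covered 2.72% without and 7.16% with TFAP2A between genes, and 4.99% and 11.7% inside genes. At gene ends, 63.5% of the 178 sites without TFAP2A (56.2 to 70.2%) had mutant H3K4me3 and 57.3% had Menin, against 82.3% and 80.3% with TFAP2A. ARID1A covered 89 of the 178 gene-end sites without TFAP2A (50%, 42.7 to 57.3%) and 91.1% of those with TFAP2A, and UTX 36.0% and 73.6%.

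The strongest site without TFAP2A lay upstream of Tyr, which encodes tyrosinase, the rate-limiting enzyme of melanin synthesis. It spanned chr7:87508170-87508690 (mm10), between genes and 14873 bp upstream of the start of Tyr, and its SOX10 U fold enrichment of 42.7 ranked 9 of 6358. Antibody T gave 36.3 there (rank 8 of 1163), UTX 39.0 (rank 120 of 9707) and ARID1A 24.2 (rank 2910 of 25385). No WT list had a peak at the site, and the nearest mutant TFAP2A peak was 266535 bp away. An enhancer upstream of Tyr is known in the mouse, and whether the site coincides with it was not examined.

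Among the next sites were those inside Cyp2j9 and Cyp2j6, neighbouring cytochrome P450 genes, and inside Pdzd2 and Acvr1. Cyp2j9 (chr4:96581490-96582047) had a SOX10 U fold enrichment of 39.9 and Cyp2j6 (chr4:96545786-96546316) of 34.1, each with UTX, ARID1A and SOX10 T in the mutant line, no WT peak, and the nearest TFAP2A peak 884062 and 878815 bp away. Pdzd2 (chr15:12490926-12491360), a PDZ-domain protein gene, had 37.2 with the same 3 mutant targets and no WT peak. Acvr1 (chr2:58505450-58506169), a BMP receptor gene, also had 37.2 for SOX10 U and 42.8 for antibody T, and was unlike the others in carrying WT ARID1A (18.5), SMARCC1 (8.95), UTX (6.20) and Menin (6.09).

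The remaining sites of the 12 highest were near or in Dtwd2 (35.4), Maml3 (33.2), Col4a1 and Col4a2 (31.7), Csmd1, Psph and Arpc1a (29.0 each) and Cbfb (28.1). Maml3, a Notch coactivator gene, had SOX10 T and no other peak, and the site in Col4a1, a basement membrane collagen gene whose neighbour Col4a2 had the nearest end, had UTX and no other peak. Psph, a serine synthesis gene, had SOX10 T and a weak TFAP2B peak (4.44). Cbfb, the partner subunit of RUNX factors, had mutant ARID1A (32.0), UTX (21.8) and Menin (6.54) and WT ARID1A (19.6), SMARCC1 (19.7) and UTX (16.1). In all, 11 of the 12 had SOX10 T, 10 mutant UTX, 9 mutant ARID1A and 3 WT UTX, none had KMT2D or lay at a gene end, and 9 had no WT peak of any target. Of the 12 highest sites with TFAP2A, 4 had no WT peak and 5 had KMT2D, and their lowest fold enrichment was 37.2, against 28.1 without TFAP2A.

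**Figure D4:**
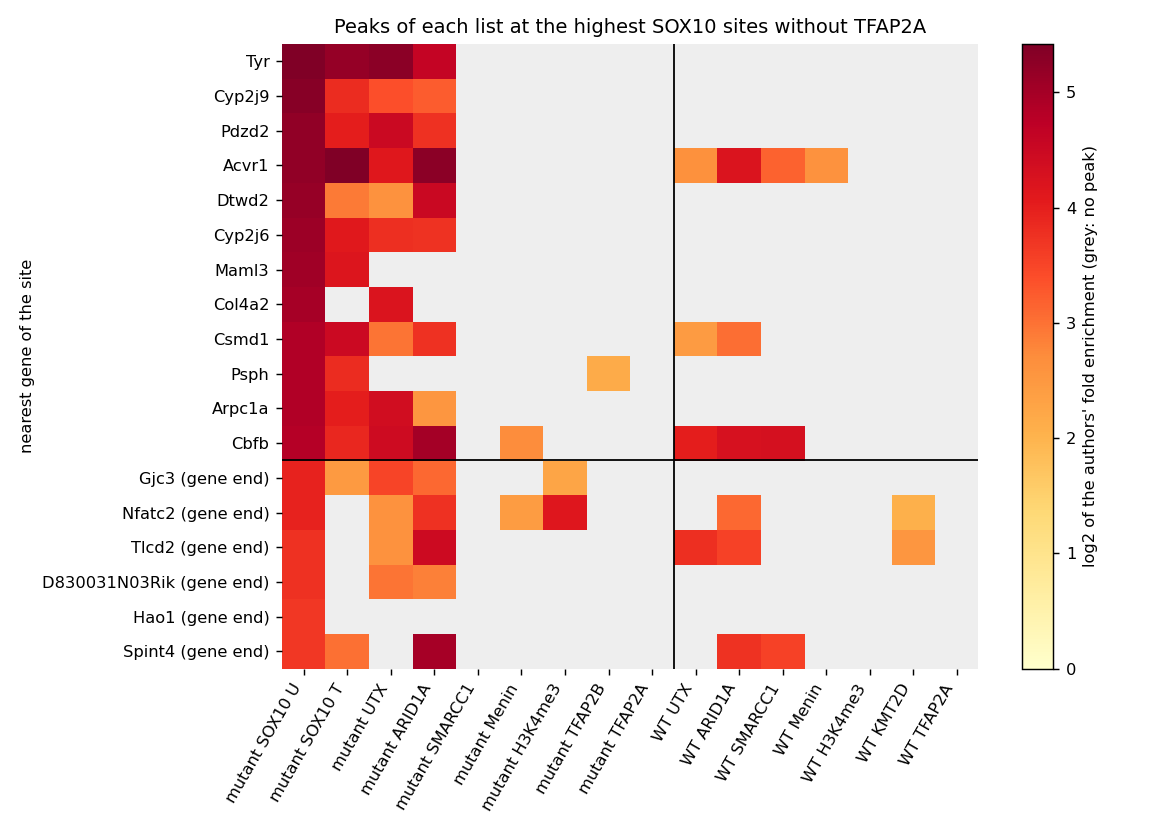
Log2 of the authors' fold enrichment (colour, grey where no peak was called) in the mutant and WT lists (columns) at the 12 highest SOX10 sites without TFAP2A and the 6 highest at gene ends (rows, by nearest gene). Tyr has SOX10, UTX and ARID1A peaks in the mutant line and none in the WT line, while Acvr1 and Cbfb have peaks in both.

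At gene ends the sites of Gjc3 and Nfatc2 tied as the highest, at 15.4. That of Gjc3 (chr5:137963013-137963452) lay 136 bp upstream of the start whose window is printed above. Its fold enrichment was 15.4 for SOX10 U, 5.50 for SOX10 T, 11.3 for UTX, 8.63 for ARID1A and 4.76 for H3K4me3, with no WT peak. A second Gjc3 site 3494 bp upstream (chr5:137966482-137966852) reached 26.1 and also had ARID1A, UTX and SOX10 T. Nfatc2, a calcium-regulated transcription factor gene, had an H3K4me3 peak of 17.6 and, in the WT line, ARID1A (8.58) and KMT2D (4.16). Next came Tlcd2 and D830031N03Rik (13.6 each), then Hao1, which encodes a liver oxidase and had no other peak, and Spint4 (12.7 each).

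The 5 sites called in the most mutant lists included 3 of very low SOX10 fold enrichment. A pair on chromosome 9 with Alkbh8 as nearest gene, 309482 and 297073 bp away, had 1.39 and 1.67 with 9 and 8 other mutant lists, and a site nearest Gm2244 on chromosome 14 had 1.34 with 9. Fold enrichment there was at most 2.51 in any list. The other 2 were nearest Gm46240 (4.45, with ARID1A at 56.4) and inside Kif16b, a kinesin gene (12.7, with ARID1A at 53.9 in the mutant line and 37.2 in the WT line).

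By nearest gene, the 3279 sites were spread over 2240 genes, 1625 of them with a single site and 48 with 5 or more. Sites with TFAP2A had 2273 nearest genes, and 767 genes were nearest to sites of both kinds (34.2% and 33.7% of each list). The 10 genes with most sites without TFAP2A included several transcription factor genes. Sox5, a SoxD gene that modulates SOX10 activity in mouse melanocytes, had 12 sites without TFAP2A and 1 with it. Zfp608, a zinc finger gene, had 12 and 8, Ets1, a neural crest factor gene, 10 and 5, Zeb2, a factor of neural crest and melanocytes, 9 and 1, and Klf6 9 and 1. Lpp, an adhesion protein gene, had 8 and 4, followed by Frmd4a (7 and 5), Mef2c (7 and 3), the aggrecanase gene Adamts5 (7 and 1) and the teneurin gene Tenm3 (7 and 3). A gene far from its neighbours, or a long one, is the nearest gene over a wider stretch: the 9 Zeb2 sites reached as far as 1549 kb from a gene end and the Sox5 gene is 954 kb long.

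At Sox5 (chr6:143828425-144782287), 11 of the 12 sites without TFAP2A lay inside the gene, with fold enrichments of 4.53 to 16.2. Mutant ARID1A and UTX were each at 5 of the 12, WT ARID1A and UTX each at 1 and KMT2D at none. At Ets1 the 10 sites had mutant ARID1A at 8 and UTX at 6, WT ARID1A at 4 and WT UTX at 2, and the strongest SOX10 peak of the gene (49.0) was one with TFAP2A. All 9 Klf6 sites had mutant ARID1A, 5 had WT ARID1A and 2 had KMT2D. Of the 8 Lpp sites, 7 had mutant ARID1A, 4 WT ARID1A and 3 KMT2D. At Adamts5, ARID1A lay at 5 of 7 in the mutant line and at 1 in the WT line.

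Over all 21896 protein-coding genes, 2257 (10.3%) had a site without TFAP2A inside the gene or within 20 kb, and 2908 (13.3%) a site with TFAP2A. The share grew with gene length, and for sites without TFAP2A it was 5.38% of genes under 10 kb, 7.16% of those of 10 to 30 kb, 12.3% of those of 30 to 100 kb and 30.6% of longer ones. Lists are set beside these shares, and the counts carry no test.

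Schwann cell and myelin genes had a site without TFAP2A at 8 of 25 (32%), with a median gene length of 18.4 kb, and a site with TFAP2A at 6 of 25. Besides Gjc3, they included Ncam1 (13.6; neural cell adhesion), Erbb3 (11.1; the neuregulin receptor), Mbp (9.97; a major myelin protein) and Mal (7.68; a myelin lipid-raft protein). S100b (6.35) and Cdh19 (4.53), a cadherin gene of Schwann cell precursors, also had one. Mbp also had 3 sites with TFAP2A, the highest at 21.8. The stronger of the 2 Mal sites lay inside the gene with ARID1A and UTX. The Cdh19 site lay 88 bp from the gene end with H3K4me3, Menin and SOX10 T. None of the sites without TFAP2A at Gjc3, Erbb3, Mbp, Mal and Cdh19 had a WT peak. The site near S100b had 5 WT targets, TFAP2A and KMT2D among them, and no other mutant peak, and both Ncam1 sites without TFAP2A had WT SMARCC1, ARID1A and UTX.

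Pigment cell genes had a site without TFAP2A at 6 of 25 (24%; median length 35.4 kb) and a site with TFAP2A at 4 of 25. After Tyr came Mitf, the melanocyte master regulator, with 2 sites without TFAP2A (13.6 and 5.44) and 1 with TFAP2A (12.7), all inside the gene. The stronger of the 2 had ARID1A, UTX and SOX10 T in the mutant line and ARID1A in the WT line, and the weaker had no other peak. Tyrp1, a melanosome enzyme gene, had a site 14441 bp upstream (9.07; ARID1A and UTX, no WT peak). Near the Sox10 gene, 2 sites without TFAP2A (7.25 and 3.63), 2831 and 2164 bp from its end, had no other peak of either line, and 1 with TFAP2A had 4.53. Both sites without TFAP2A lay within 1 kb of the end of another gene, and the weaker had a −log10 q of only 2.05. The site counted for Mc1r, the melanocortin receptor gene (9.94), was 15483 bp from Mc1r and nearer to other gene ends, with TFAP2B in the mutant line and 7 WT targets, TFAP2A among them. Erbb3 also had a site with TFAP2A (13.6) 2873 bp from its end, beside the site without TFAP2A 1470 bp from it (11.1).

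Adhesion genes (11 of 24, 45.8%) and axon guidance genes (11 of 34, 32.4%) had a site without TFAP2A at shares above that of all genes, but their median lengths of 151 and 183 kb put them in the class of long genes, 30.6% of which had a site. Cadm1 (18.7; at a site with H3K4me3 and Menin), Ncam1 and Chl1 (13.6 each) and Itgb3 (13.4) led the first, and Sema3c (10.9), Unc5c (10.3) and Sema3d (9.97) the second. With TFAP2A the counts were 10 and 12. MAPK feedback genes had 6 of 16 (37.5%; median length 12.3 kb) both without and with TFAP2A, among them Spry4 (6.80) and the phosphatase gene Dusp6 (6.51), whose site lay 55 bp from the gene end.

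Mesenchymal state genes had sites without TFAP2A at 6 of 23 (26.1%) and with TFAP2A at 8, neural crest regulators at 4 of 25 (16%) and 6, Hippo pathway genes at 3 of 15 (20%) and 6, and cell cycle and survival genes at 2 of 16 and 3. The survival genes Bcl2l1 (18.1) and Bcl2 (15.4) each held a site inside the gene with ARID1A, UTX, Menin and SOX10 T. ERBB receptors and ligands had 2 of 15 in both cases, and ribosomal protein genes 1 of 21 without TFAP2A and 3 with TFAP2A. Fibroblast markers had 4 of 10 without TFAP2A (Col1a1 at 11.1, Postn at 6.35, Fap at 5.44 and Col3a1 at 4.53) and 0 of 10 with TFAP2A. H3K4me3 lay at a gene end of Col1a1 and Col3a1 in both lines. Keratinocyte (0 of 9), endothelial (0 of 7) and blood cell markers (0 of 8) had none without TFAP2A, and 1 blood cell marker had a site with TFAP2A. Of 14 genes specific to other tissues, 2 had a site without TFAP2A and 3 one with TFAP2A.

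**Figure D5:**
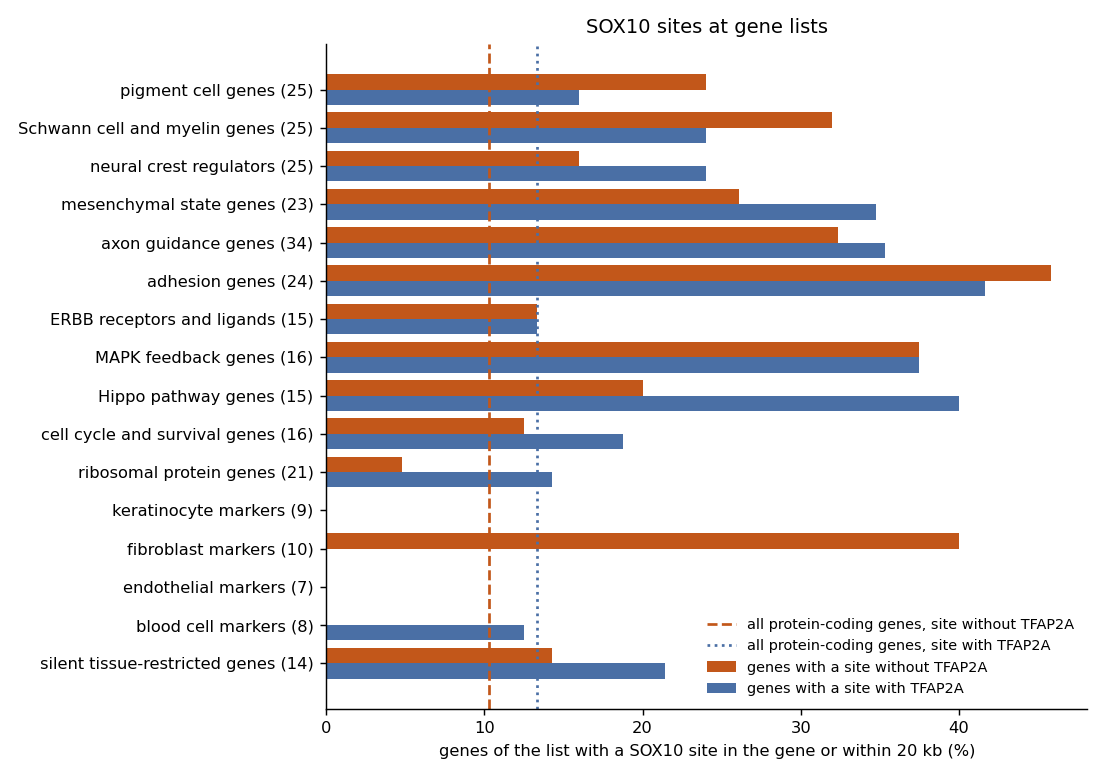
Share of the genes of each list (number of genes in brackets) with a SOX10 site in the gene or within 20 kb (x axis, %), orange for sites without TFAP2A and blue for sites with TFAP2A, with dashed and dotted lines for the shares over all protein-coding genes (10.3% and 13.3%). For sites without TFAP2A, adhesion genes reach 45.8%, fibroblast markers 40%, MAPK feedback genes 37.5% and axon guidance genes 32.4%. Schwann cell and myelin genes reach 32%, mesenchymal state genes 26.1% and pigment cell genes 24%, and keratinocyte, endothelial and blood cell markers 0.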

How the data were processed

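The deposited files were 22 narrowPeak lists, 1 per library (12 mutant, 10 WT), of 24 samples. The 2 IgG samples were not analysed here. Reads were aligned with Bowtie2 and peaks called with MACS2 on mm10, per the submitters' processing notes, which also name FastQC and MultiQC. The sources used here give no versions, thresholds or control. A deposited peak carries the authors' score, the authors' fold enrichment (a ratio over background), and the deposited −log10 p and −log10 q. The weakest peak of a list had a −log10 q between 1.30 and 1.59.

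Overlap means at least 1 bp. The gene set was RefSeq's 21896 protein-coding genes on GRCm38.p6, the assembly of mm10, and a gene end is either end of a gene. The nearest gene is that with the end nearest to the summit. Caller depth was reconstructed from the deposited fold enrichment and −log10 p (an estimate), and ran from 0.405 to 2.23 M (mega) fragments in mutant lists and from 0.863 to 1.20 M in WT lists. It limits how weak a peak could be called. Named sites were the 12 highest members, the 6 highest at gene ends, the 5 in most mutant lists, the 10 genes nearest to most members, the 5 peaks on each side of the rule, and up to 6 members per gene list. Some list members are not reported here by name. The 16 lists, like the members, were chosen with earlier results of these data known. Alternatives were other overlaps, gaps, thresholds, strengths and distances. On simulated intervals, 805 of 805 overlaps and 2000 of 2000 nearest genes were recovered. The 95% interval of a simulated difference held the true value in 936 of 1000 draws. Sequences are from RefSeq (GRCm38.p6), and sequences of sites away from listed starts were not used here. Figures were drawn with Matplotlib 3.10.9, and the rest was computed in Python 3.11.15 with SciPy 1.17.1, pandas 2.3.3 and NumPy 2.4.6.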

Additional observations from a re-analysis of the deposited data

How the results depend on the processing

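The alternatives were 14 settings, which gave 157 values of 17 results, 147 of them differences between sites without and with TFAP2A. None of these differences changed sign, those for ARID2, PBRM1, BRD9 and SOX10 T were not recomputed, and 118 of the 157 values stayed within the interval of the value reported (counts within 1.5 times). Of the other 39, 21 concern Menin, SMARCC1, WT ARID1A, WT H3K4me3 and WT TFAP2A. No paired analysis was possible because each line and target had 1 library. With only SOX10 U peaks that antibody T also called, members numbered 320, and the differences were -16.0 points for mutant ARID1A, -15.5 for mutant UTX and -59.3 for TFAP2B. Beyond 5 kb from gene ends they were -46.4 for TFAP2B, -5.66 for mutant H3K4me3, -28.6 for KMT2D and -31.6 for WT UTX. With SOX10 peaks of −log10 q of at least 5 they were -13.9 for mutant H3K4me3, -9.75 for gene ends and 13.0 for sites beyond 5 kb. TFAP2B gave -55.0 when TFAP2A had to cover 50% of a SOX10 peak, -57.6 with TFAP2A peaks of −log10 q of at least 5 and -46.3 when TFAP2B had to cover 50%. Reweighting to equal SOX10 fold enrichment gave -18.7 for mutant H3K4me3 and -13.6 for gene ends, and gene ends of 2.5 kb gave -14.1. Genes with a site numbered 3648 with 50 kb around each gene. In that setting the cause is the wider window, and the cause of the other shifts was not tested. Peaks absent from a list may lie under its threshold, and 1 library per target gives no measure of replicate error.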

Other observations

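The 905 sites where SOX10 U was the sole mutant peak were mostly distal, 90.1% of them beyond 5 kb from a gene end and 1.99% at one. Among genes nearest to at least 3 sites without TFAP2A (232 genes), 97 were nearest to no site with TFAP2A. Of all 2240 nearest genes, 767 (34.2%) were also nearest to a site with TFAP2A, so most were not. Genes with at least 3 sites without TFAP2A thus lacked a site with TFAP2A less often than nearest genes at large. Of the 97, the genes with the most sites were Cd83, an immune cell surface protein gene, and Pkhd1, a ciliary membrane protein gene, with 7 sites each. Nedd9, an adhesion scaffold gene, had 6. Fold enrichment reached 13.6 at Cd83, 11.8 at Pkhd1 and 9.97 at Nedd9. No WT list had a peak at 6 of the 7 Cd83 sites, 3 of the 7 Pkhd1 sites and 3 of the 6 Nedd9 sites. Over all sites without TFAP2A that share was 58.5%. These genes were picked after their values were seen.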
